A study of Drosophila melanogaster with 3 samples.

Results

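Proneural basic helix-loop-helix (bHLH) genes and their partners were examined in a map of caup-eGFP binding in whole Drosophila melanogaster embryos. The 9 genes were ac, sc, l(1)sc and ase of the achaete-scute complex, ato, amos and cato of the atonal family, and the partners da and emc, out of 13945 protein-coding genes. They were chosen by name, and their regions were those with the summit, the point of highest enrichment, in the gene body or up to 20 kb to either side. These windows held 16 of the 6056 regions of the optimal set, the regions the authors kept for reproducibility, and 57 of the 30000 regions of their pooled list, of which the optimal set is the strongest end. The 41 others are called sub-threshold here.

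The study had 1 group, 3 biological replicates of a transgenic line that stably carries caup fused at its C terminus to eGFP, precipitated with an antibody to GFP. The embryos were 0 to 24 h old and of mixed sex, and the chromatin was sonicated to fragments of 200 to 800 bp. The promoter of the fusion and the state of the native gene were not given in the sources used here. A region gives no cell type, stage or tissue, so strong binding in few cells and weak binding in many cannot be told apart.

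Proneural proteins are transcription activators that give ectodermal cells the capacity to become neural precursors. They bind E-box DNA as dimers with da, the broadly expressed bHLH partner, whereas emc has a helix-loop-helix but no basic DNA-binding stretch and holds these proteins in inactive dimers. Caup and its neighbour ara are known as prepattern factors that act upstream of ac and sc in the larval wing disc, a tissue that whole embryos of this age do not sample as such. Notch signalling then limits proneural activity to single precursors.

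Both partner genes, da and emc, had an optimal summit within 1 kb of their own transcription start site (TSS), and none of the 7 proneural genes did. The 2 of 9 (22.22%) was near the 27.6% of all protein-coding genes with such a summit, so the count sets the 9 genes apart in neither direction, and what follows describes single genes. The 4 genes of the achaete-scute complex and the DNA between them held no optimal summit. The strongest region across the complex and 20 kb around it lay at the promoter of another gene, ebo.

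The sequences shown start with the emc promoter up to its TSS. Next are the 2 further optimal regions of emc that lie nearest to the promoter summit and farthest from it downstream. The last 2 are the only optimal and the strongest sub-threshold region around the achaete-scute genes. They are the plus strand of assembly release 6 (dm6) from RefSeq, 120 bp to each side of the summit. The one at the emc promoter stops at the base before the TSS, so the summit, 10 bp downstream of the TSS, is not in it. Capitals mark matches on either strand to the searched motifs, which were the Iroquois palindrome ACANNTGT and the E-box CANNTG and its forms CAGCTG and CAGGTG and the homeodomain core TAATTA and the GATA site GATAAG and the DRE-like site TATCGATA.
emc promoter (chr3L:749290-749399): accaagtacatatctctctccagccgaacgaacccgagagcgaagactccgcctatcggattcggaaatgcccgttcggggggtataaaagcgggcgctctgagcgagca
emc intron (chr3L:751800-752040): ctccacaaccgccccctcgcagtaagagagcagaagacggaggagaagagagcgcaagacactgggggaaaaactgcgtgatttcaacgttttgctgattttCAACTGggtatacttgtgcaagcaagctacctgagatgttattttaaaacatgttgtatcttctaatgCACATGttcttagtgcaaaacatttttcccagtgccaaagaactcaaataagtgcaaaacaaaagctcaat
emc downstream (chr3L:771485-771725): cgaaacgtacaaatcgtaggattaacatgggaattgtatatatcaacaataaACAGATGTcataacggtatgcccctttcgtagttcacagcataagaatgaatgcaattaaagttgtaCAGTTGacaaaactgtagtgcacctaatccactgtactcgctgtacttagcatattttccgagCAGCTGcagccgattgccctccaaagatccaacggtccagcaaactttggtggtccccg
ebo promoter, beyond ase (chrX:476595-476835): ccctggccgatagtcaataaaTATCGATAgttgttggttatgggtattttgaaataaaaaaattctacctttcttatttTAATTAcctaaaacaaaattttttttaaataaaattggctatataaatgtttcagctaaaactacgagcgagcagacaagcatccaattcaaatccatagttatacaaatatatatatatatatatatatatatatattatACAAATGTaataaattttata
upstream of ase (chrX:457846-458086): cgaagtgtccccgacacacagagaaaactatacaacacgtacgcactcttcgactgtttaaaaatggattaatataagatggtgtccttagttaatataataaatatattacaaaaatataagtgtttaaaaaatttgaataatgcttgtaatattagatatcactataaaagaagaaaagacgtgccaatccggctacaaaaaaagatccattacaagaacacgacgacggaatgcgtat

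The emc promoter stretch held none of these motifs, and none lay within 100 bp of the promoter summit on either side. The emc intron stretch held 2 CANNTG matches and no other motif. The downstream emc region held 1 palindrome and 3 CANNTG matches, 1 of which lies inside the palindrome. The stretch at ebo held 1 palindrome near its right end, 104 bp from the summit, beside 1 TAATTA and 1 TATCGATA. Its only CANNTG match lies inside the palindrome. The stretch upstream of ase, an AT-rich sequence, held none. A match is a description of letters and not a binding site.

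Da, at chromosome 2L 10388105 to 10393228 on the plus strand (FBgn0267821), encodes the common dimer partner of the proneural proteins. The optimal region at its promoter had its summit 57 bp upstream of the TSS. Its signal value, the authors' enrichment statistic on a scale that is not given, was 443.9 in the pooled list, above 69.2% of the optimal set. It was 155.2, 129.1 and 151.5 in replicates 1, 2 and 3, at ranks 1888, 1538 and 2756 of 30000. Since signal scales differ between lists, replicates are compared by rank, and a region within a replicate's first 6056 ranks is said to be in its top list. The da summit was thus in the top list of every replicate.

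The da window held 5 optimal and 5 sub-threshold summits. The other 4 optimal regions each lay at the promoter of a neighbour. The strongest, at 1031, lay 155 bp from the TSS of CG5096, 5997 bp upstream of da, and overlapped an exon of gny. The next, at 968.5, lay 52 bp from the TSS of Ip259, on the far side of da. A region at 499.5 lay 202 bp from dpr19, an immunoglobulin-family gene, and 1 at 345.7 lay 196 bp from Cdk1, the mitotic kinase, 1647 bp upstream of da. All 5 were in the top list of each replicate. No pooled summit lay within the da gene body.

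Emc, at chromosome 3L 749400 to 753492 on the plus strand (FBgn0000575), encodes the inhibitor of proneural dimers. Its promoter region, 749285 to 749512, had its summit 10 bp downstream of the TSS and a pooled signal value of 490.1, above 73.66% of the optimal set. The replicates gave 232.6, 119.1 and 155.5, at ranks 856, 1765 and 2640, and all were in the top lists. An intronic region at 751710 to 752129, with its summit 2520 bp into the gene, had a pooled value of 240.1. Its ranks were 3740, 4476 and 7458 in replicates 1, 2 and 3, so it was outside the top list of replicate 3.

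The strongest region of the emc window, at 658.8, lay in an intron of hng3, whose body also holds emc. It was 439 bp from a TSS of hng3 and 10490 bp upstream of the emc TSS. Downstream, a region at 355.8 lay 13131 bp from the emc TSS and 6972 bp from the next TSS, that of tRNA:Ile-TAT-1-1. A further region at 249.2 lay 1242 bp from tRNA:Ile-TAT-1-2. It ranked 6854 in replicate 1, outside that top list, and 5729 and 4640 in replicates 2 and 3. These 2 and the intronic region were the only 3 of the 16 optimal regions over 1 kb from every TSS, so emc was the only one of the 9 windows that held optimal regions away from promoters.

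The emc window also held many weak regions. Emc lies within the body of hng3, so regions in and close to emc lie equally within hng3. Some neighbouring summits were only 206 to 347 bp apart, in overlapping regions of 420 bp, so the summits counted here are not all separate sites. Its window held 26 pooled summits, 21 of them sub-threshold, against a median of 11 over protein-coding genes, and 94.16% of those genes had fewer. The replicate lists gave 25, 20 and 31 summits there. Of the 21, 5 were found in all 3 replicate lists, 13 in 2 and 3 in 1, without the same split over all sub-threshold regions beside it. The strongest of them, at 174.1 (rank 7603), lay 16547 bp from the emc TSS, and 4 lay close to the gene's start, from 2814 bp upstream to 1701 bp downstream, with values of 65.6, 79.22, 128.7 and 84.47. The da window held 10 pooled summits, a count that 40.27% of genes fell short of, and 17, 8 and 7 in the replicate lists, so replicate 1 was high there. With support required in the top lists of replicates 1 and 3, or of all 3, emc had 3 optimal summits in place of 5, while da had 5 still.

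**Figure D1:**
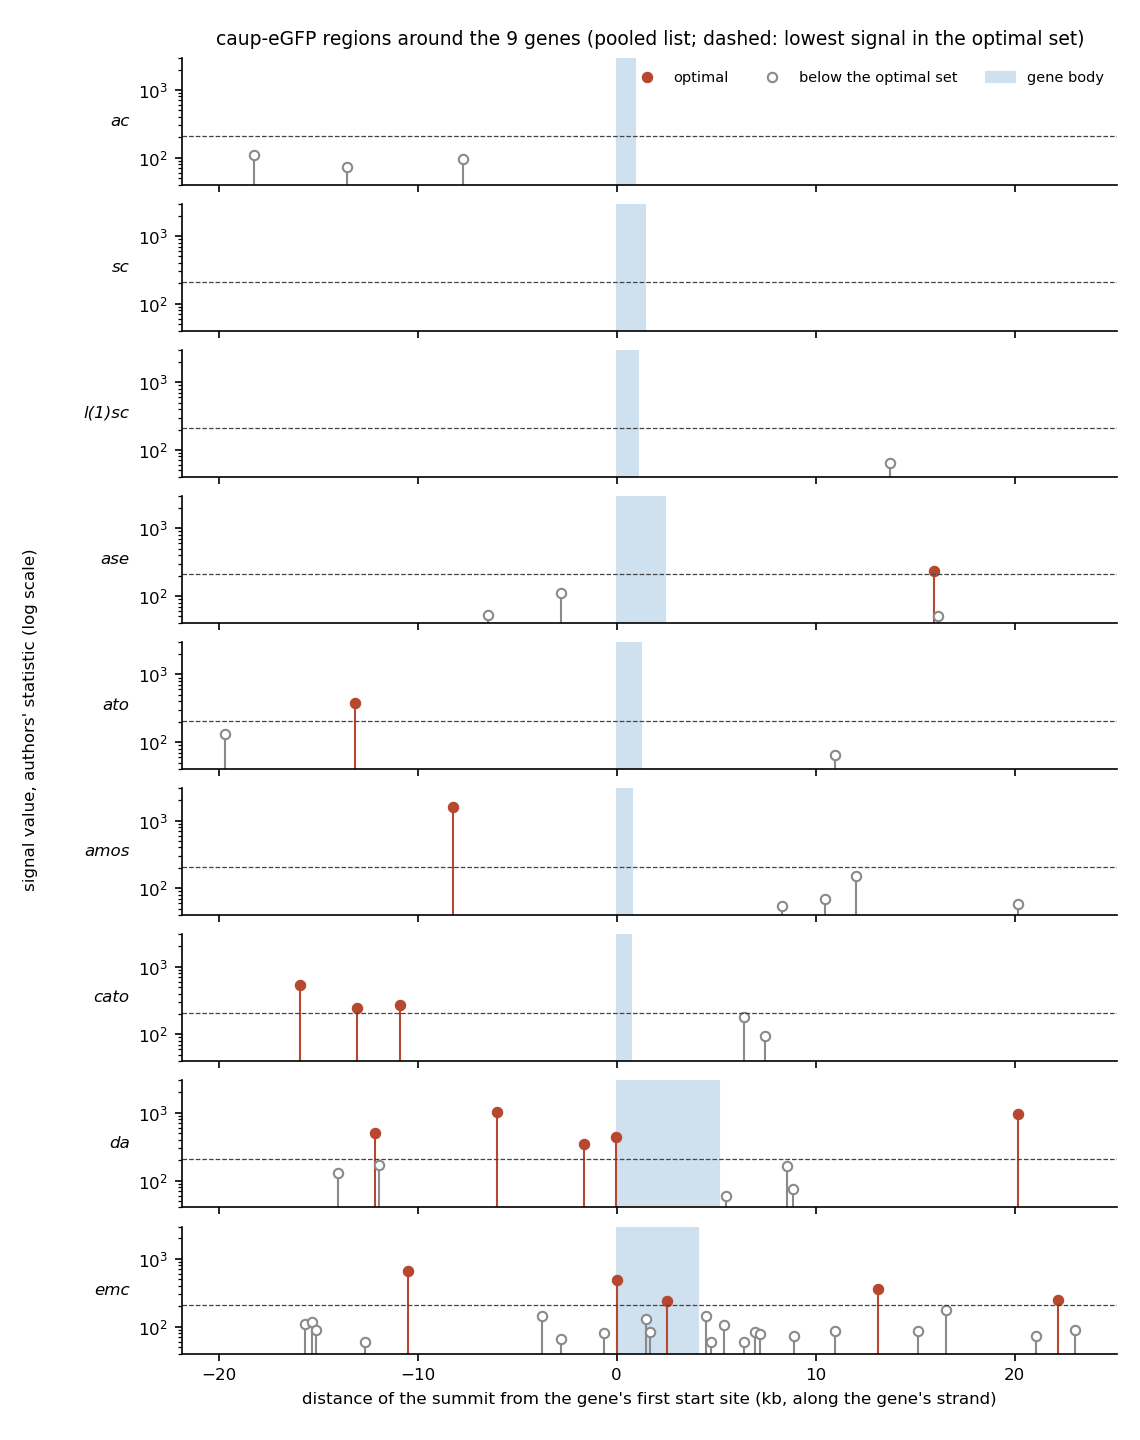
Pooled regions around the 9 genes, drawn from 20 kb before the gene body to 20 kb past its end; the horizontal axis is the distance of each summit from the gene's TSS in kb along its strand, and the vertical axis is the authors' signal value on a log scale. Filled points are optimal and open points sub-threshold regions; da and emc each have a filled point at 0 kb, and sc has no region.

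The achaete-scute complex was the next object. Ac (X 370031 to 370947, FBgn0000022) and sc (X 396060 to 397497, FBgn0004170) are known for specifying external sense organs. L(1)sc (X 409721 to 410817, FBgn0002561) is known from early neuroblasts and muscle progenitors, and ase (X 460747 to 463176, FBgn0000137) from neural precursors once they have formed. All 4 are on the plus strand, within the body of the minus-strand gene CG32816. Their windows overlap and share regions, so regions were also counted once over X 350031 to 483176, a span of 133.1 kb.

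The span held 1 optimal and 8 pooled summits. In windows of the same length tiled along the 6 chromosome arms, the medians were 5 optimal and 30 pooled summits. As few or fewer optimal summits were found in 237 of 1002 such windows (23.65%) and in 35 of 176 on X (19.89%). As few or fewer pooled summits were found in 160 of the 1002 (15.97%) and in 16 of the 176 on X (9.091%). A stretch this sparse was thus less common in the pooled list than in the optimal set, and rare in neither among these windows. The windows covered whole arms, and none was left out for poor sequence or mapping. Windows that could hold few regions thus count in these shares, and the shares without them are not given.

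The 1 optimal region, X 476505 to 476924, had its summit 136 bp upstream of the TSS of ebo, which encodes an exportin, and 15968 bp downstream of the ase TSS, outside CG32816. On the other side of the summit, CG13373 starts at X 476984 on the plus strand, also within 1 kb. The pooled value of the region, 236.3, was near the low end of the optimal set, above 16.1% of it, where the lowest was 208.6. The replicates gave 81.47, 71.15 and 93.96, at ranks 5585, 4051 and 5743, each within the top list. These were the only 3 of 30 replicate regions in the span that reached a top list.

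The 7 sub-threshold regions had pooled values from 51.14 to 110.7, at ranks 12801 to 29133. The strongest lay 2781 bp upstream of ase, the closest pooled summit to any of the 4 genes. It was found in each replicate, at values of 36.74, 26.96 and 50.77 and ranks 15518, 15494 and 12693. A region at 108.6, 18233 bp upstream of ac and 1232 bp from CG43181, was also found in each, at ranks 13315, 25952 and 17715. No other sub-threshold region of the span had one of its own in all 3.

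Upstream of ac, a region at 95.84 lay 109 bp from the TSS of lncRNA:yar, a long non-coding RNA of the interval between y and ac, and 7741 bp from ac. It ranked 12583 and 16224 in replicates 1 and 3 and was missing from the list of replicate 2. A region at 73.19 lay 48 bp from the TSS of y, the pigmentation gene yellow, and was likewise found in replicates 1 and 3. A region at 65.15, 13752 bp downstream of l(1)sc, and 1 at 52.19, 6481 bp upstream of ase, were found only in replicate 3. The weakest, at 51.14, lay 62 bp from CG13373. In replicate 2 its summit fell within the region at ebo.

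From the start of ac to the end of ase, 93.15 kb, there were 0 optimal and 3 pooled summits, and 1, 4 and 6 summits in replicates 1, 2 and 3. None of the pooled summits was inside any of the 4 gene bodies. Of the 30 replicate regions in the whole span, 13 overlapped no pooled region, and 0 of these 13 overlapped a region of another replicate. The nearest such region to l(1)sc, 3643 bp upstream, had rank 29890 in replicate 2, and the nearest to ac, 3339 bp upstream, had rank 26570 in replicate 3.

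Ac, sc and l(1)sc lie in 1 gap between pooled summits, 61.18 kb long, from X 362290 to 423473. Of 29994 gaps between neighbouring pooled summits, 76 were at least as long (0.2534%), 15 of them among the 5292 on X, and the median was 1484 bp. The gap between optimal summits around the complex was 138.3 kb, and 99 of 6050 were at least as long (1.636%). A gene falls into a long gap more readily than into a short one, so the distance from each TSS is the closer measure. The nearest pooled summit lay 7741 bp from ac, 27413 bp from sc, 13752 bp from l(1)sc and 2781 bp from ase, against a median of 641 bp over protein-coding genes. A summit at least as far was found for 14.08% of genes in the case of ac, 2.546% for sc, 6.382% for l(1)sc and 33.29% for ase.

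The nearest optimal summit lay 31596 bp from ac, 57625 bp from sc, 66994 bp from l(1)sc and 15968 bp from ase, against a median of 5314 bp. The shares of genes with one at least as far were 11.38%, 4.991%, 3.88% and 24.42%, in that order. Sc was the only one of the 9 genes with no pooled summit in its window. At da and emc the nearest optimal summits lay 57 and 10 bp away, and 92.43% and 98.67% of genes had theirs at least as far. Read depth is unknown, and a lack of listed regions does not show that caup-eGFP was absent there.

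**Figure D2:**
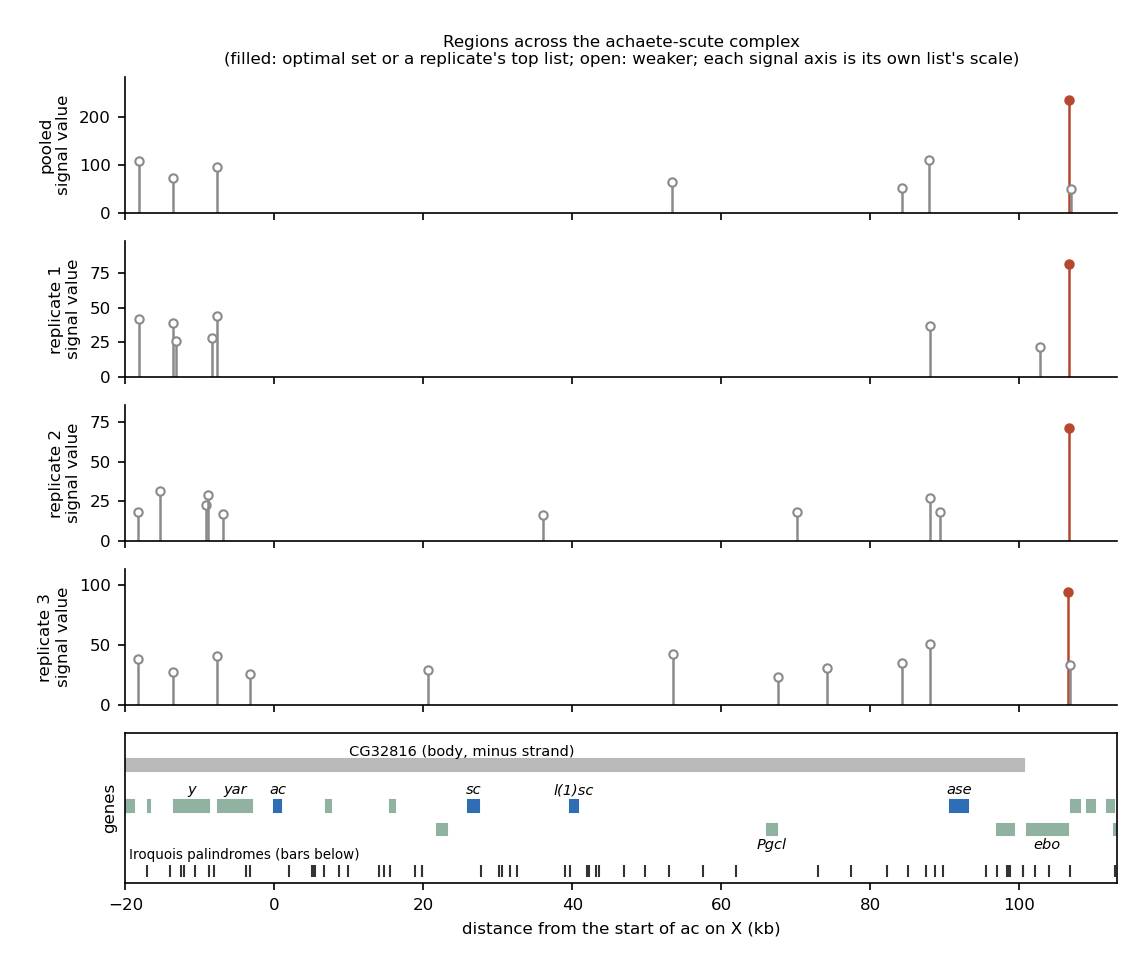
Regions across the achaete-scute complex in the pooled list and in replicates 1, 2 and 3, with genes and Iroquois palindromes (short bars) beneath; the horizontal axis is the distance from the start of ac in kb, and each vertical axis is the signal value of that list on its own scale. Filled points, in the optimal set or a replicate's top list, occur only at ebo, and no pooled region lies between 7741 bp upstream of ac and 13752 bp downstream of the l(1)sc TSS.

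The complex did not lack the letters of the Iroquois palindrome. The span held 56 ACANNTGT sites, 0.4206 per kb, against 0.3761 per kb over the 6 arms, with a GC content of 40.35% against 42.15%. Within 100 bp of a pooled summit lay 0 of the 56, against 6.65% of the 50266 sites on the arms, and within 100 bp of an optimal summit 0 against 1.58%. This count was added after the data were seen. At 200 bp, 1 of the 56 lay near a pooled summit against 11.9% on the arms, and that site is the one printed at ebo. These shares depend on how many summits a window holds. The span held 8 pooled summits against a median of 30 in windows of its length. The low shares thus cannot be told apart from the scarcity of summits, and do not show that palindromes were passed over. The emc window held 20 sites, 4 near a pooled and 1 near an optimal summit, and the da window 24, with 3 and 0. E-boxes were found at 4.566 per kb in the span, 8.527 per kb in the emc window and 5.296 per kb on the arms.

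The atonal family had optimal regions in its windows, each at the promoter of another gene. Ato, at 3R 8278052 to 8279274 on the plus strand (FBgn0010433), is known for chordotonal organs and the founding photoreceptor of each ommatidium. Its only optimal region had a value of 377 and lay 70 bp upstream of Mcm2, a subunit of the replicative helicase, and 13152 bp upstream of ato. It was found at 139.8, 78.59 and 181.7 in replicates 1, 2 and 3, at ranks 2281, 3450 and 2038. Both sub-threshold regions, at 131.1 and 63.73, lay 19693 bp upstream and 10967 bp downstream of the ato TSS.

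Amos, at 2L 18596136 to 18596921 on the minus strand (FBgn0003270), is known for olfactory sensilla. The strongest of the 16 optimal regions was in its window, at 1587 and pooled rank 173, 102 bp from the TSS of CG10413 and 8203 bp upstream of amos. The replicates gave 566.5, 427.8 and 597.4, at ranks 152, 153 and 219, so it was among the strongest regions of every list. The other 4 pooled summits of the window, at 55.42 to 149.9, lay 8297 to 20152 bp downstream of the amos TSS, and their nearest TSS was that of Pde11, a phosphodiesterase gene.

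Cato, at 2R 16277685 to 16278396 on the minus strand (FBgn0024249), is known from sensory precursors at a later step than ato. It had 3 optimal regions, all upstream. The strongest, at 540.5, lay 90 bp from Atg9, an autophagy gene, at ranks 1516, 1422 and 1725. The others, at 267.5 and 242.4, lay 12 bp from JhI-26 and 7 bp from CG30100. The region at CG30100 ranked 6567 in replicate 3 and was outside that top list. Of the 2 sub-threshold regions, 1 at 180.3 lay 18 bp from Khc, the kinesin heavy chain gene, 6407 bp downstream of cato, and had no counterpart in replicate 2.

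Over all 9 genes, 6 had an optimal summit in the window, against 82.3% of protein-coding genes, and 8 had a pooled summit, against 96.6%. The optimal counts were 0 for ac, sc and l(1)sc, 1 for ase, ato and amos, 3 for cato and 5 for da and emc, with a median of 3 over protein-coding genes. Of those genes, 17.69% had 0, 34.47% had at most 1, 63.28% had at most 3 and 83.6% had at most 5. Windows grow with gene length, and the proneural genes are short. Of the 16 optimal regions, 13 had a TSS of any gene at 1 kb or closer, against 61.1% of the whole optimal set, and 3 had a member's TSS as the nearest, 1 at da and 2 at emc. The nearest TSS of the other 13 was that of another gene.

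**Figure D3:**
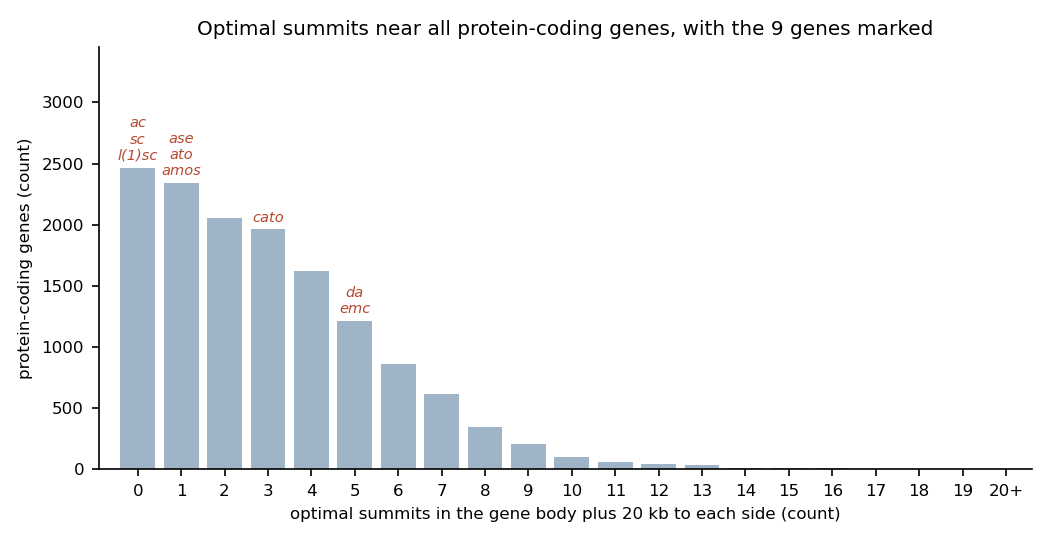
Number of optimal summits in the gene body plus 20 kb to each side (horizontal axis, count) for all protein-coding genes (vertical axis, number of genes), with the 9 genes named above their bar. Ac, sc and l(1)sc are in the bar at 0, and da and emc in the bar at 5.

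Replicate support was counted for the regions in these windows. The summits of 13 of the 16 optimal regions (81.25%, Wilson 95% interval 56.99 to 93.41) were in all 3 top lists, against 62.7% of all optimal regions. The interval covers counting error only and includes the value of the whole set. The other 3, at CG30100, in the emc intron and near tRNA:Ile-TAT-1-2, were in 2 top lists and in all 3 lists in full. Of the 41 sub-threshold regions, 11 were found in 3 replicate lists, 21 in 2 and 9 in 1. The same split over all sub-threshold regions is not given, so this support cannot be called high or low. A replicate region can also count for 2 pooled summits. At dpr19 in the da window, the region at rank 1257 in replicate 3 counted for the optimal and for a sub-threshold summit.

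**Figure D4:**
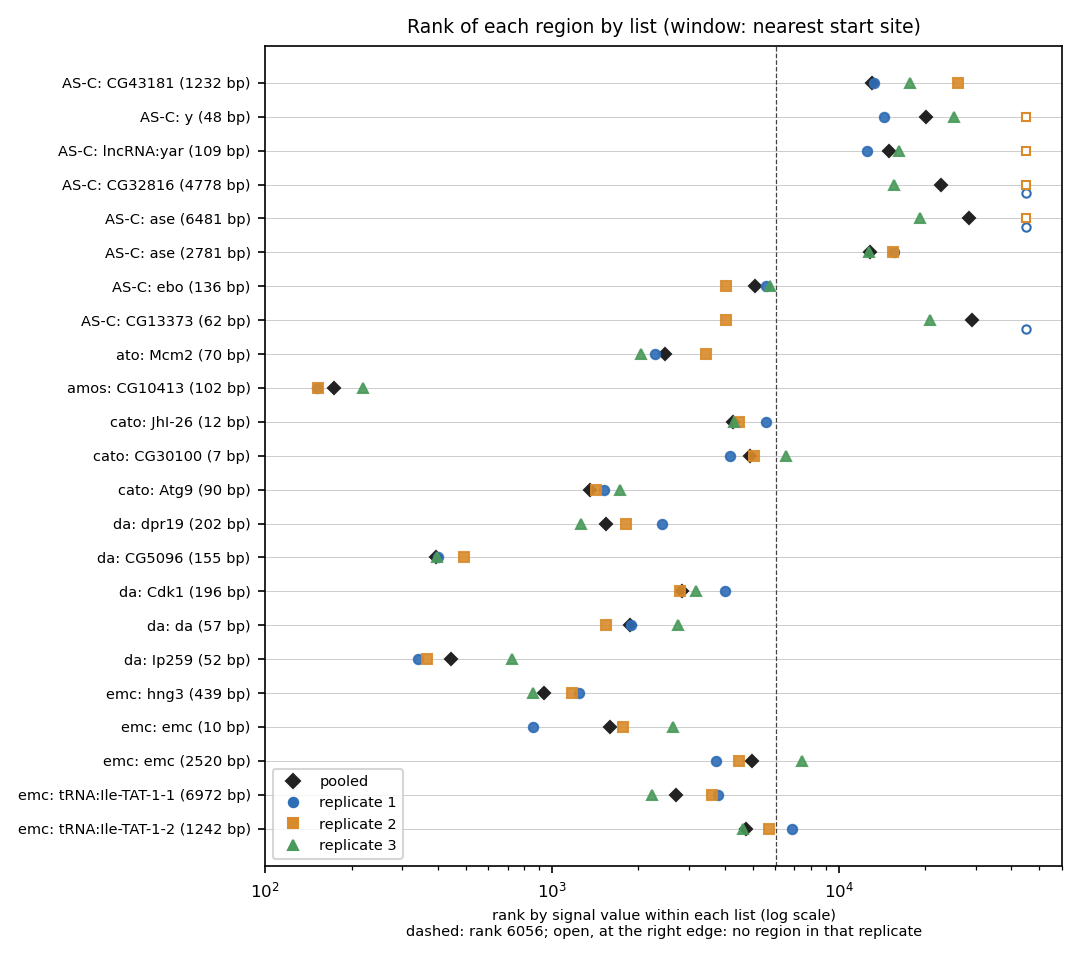
Rank by signal value (horizontal axis, log scale) in the pooled list and replicates 1, 2 and 3 for the 16 optimal regions of the 9 genes and the 7 sub-threshold regions of the achaete-scute span (AS-C), each named by window and nearest TSS with its distance in bp. The dashed line is rank 6056 and open symbols at the right edge mark replicates without the region; the span's regions other than ebo have pooled ranks from 12801, and replicate 2 has no region for 4 of them.

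Motif content at the 16 optimal summits was described within 100 bp, both strands, beside the same over all 6056. ACANNTGT was found at 2 of 16 against 11.5%, and CAGCTG at 2 against 10.7%. Within 200 bp, ACANNTGT was at 4 against 21.5% and CAGCTG at 6 against 20.9%. CANNTG was found at 7 against 62.1% within 100 bp, but at 15 against 87% within 200 bp. GATAAG was found at 5 against 13.2% and TAATTA at 4 against 14.9%. Within 200 bp, GATAAG was at 6 against 23.5% and TAATTA at 4 against 26.4%. With 16 regions, each of these counts rests on few regions, and not all of them lie at promoters. The median GC content was 37.56% (20.9 to 51.74), against 37.81% over all optimal summits.

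Genes that act before and after the proneural genes gave the wider setting. Of 12 prepattern and upstream regulators of ac and sc, 11 (91.67%) had an optimal summit in the window, near the 82.3% of all protein-coding genes, and 6 (50%) within 1 kb of a TSS, against 27.6%. The 4 highest promoter values were 415.2 at hry, a repressor of ac, 358.8 at ush, a cofactor of GATA proteins, 312.3 at caup itself and 308.1 at mirr. The summit at ush was nearest to lncRNA:CR46258. That at hry was at rank 12244 in replicate 2, outside its top list. Of the others within 1 kb, pnr was in all 3 top lists and tup only in that of replicate 1. B-H1 had no optimal summit in its window.

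The list of 16 genes of the sensory organ precursor also includes elav, which is not particular to that precursor. Of the 16, 14 (87.5%) had an optimal summit in the window, near the 82.3% of all protein-coding genes. Within 1 kb of a TSS, 8 (50%) had one, elav among them, against 27.6%. The highest values were 2087 at elav, the pan-neuronal RNA-binding protein, 991.3 at numb, the Notch inhibitor of asymmetric division, 656.7 at chn and 625.6 at neur, the ubiquitin ligase of Notch signalling. All 4 were in the top list of each replicate. Of the rest, rho was in all 3 top lists, ttk in 2, and nvy and pros in 1 each. Sens and spdo had no optimal summit in the window. Of 16 other bHLH activators, 15 (93.75%) had an optimal summit in the window, against 82.3%, and 3 (18.75%) within 1 kb of a TSS, against 27.6%. These were crp at 736.3, net at 445 and Oli at 220, and tap had none in the window. Crp and net were in all 3 top lists, while Oli ranked 12717 in replicate 1, outside that top list. None of these list counts was tested. The median number of optimal summits per window was 4, 3 and 2 in the 3 lists, against 1 over the 9 genes and 3 over all protein-coding genes.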

How the data were processed

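Chromatin immunoprecipitation of caup-eGFP was sequenced in 3 replicates of 1 group, numbered as in the labels. The authors deposited region lists. Per the deposited text notes, each replicate list came from its alignment and a control (not analysed here), the pooled list from the 3 alignments, and the optimal set from a test of irreproducible discovery rate. The aligner, peak caller, versions and threshold were not given in the sources used here. The replicate lists and the pooled list hold 30000 regions, weak ones included, and the 6056 optimal regions are the pooled regions of highest signal. The signal value that the authors deposited is an enrichment statistic of unstated scale, used only within a list. Read depth is unknown. Lists on dm3 were not used. Sequences are printed for a few regions, and at least 1 other is not reported here.

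Genes and TSSs came from Ensembl release 115 on dm6, with coordinates counted from 1, over 6 arms, and their ends matched RefSeq for 9 of 9 members. Summits were counted in gene bodies plus 20 kb, within 1 kb of TSSs and, for motifs, within 100 bp, with Python 3.11.15, numpy 2.4.6, pandas 2.3.3 and scipy 1.17.1. The counting was tested on simulated data. With 1 group there is no test between groups, and values stand beside the same over all protein-coding genes, tiled windows or gaps.

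The genes, the lists of related genes and the alternatives were chosen with earlier results of these data known. The text names each member, each optimal region of its window and each pooled region of the achaete-scute span, which goes beyond the rule of the 3 strongest per member, and up to 4 genes per related list by promoter signal. The sub-threshold regions, the genes without a summit and the listed genes beyond those 4 were named after their values were seen. Replicates left out, all-replicate support, other windows of 5 and 50 kb, and the stronger 3028 peaks were tried.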

Additional observations from a re-analysis of the deposited data

How the results depend on the processing

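Da and emc were the only 2 genes with an optimal summit within 1 kb of their TSS under every list, distance and left-out replicate tried. The counts without a replicate were those of optimal regions in the top lists of the other 2. Both promoter summits were in all 3 top lists, so leaving out a replicate could not remove them. The number of the 9 genes with a summit in the window was 6. It was 5 with the stronger 3028 peaks, 8 in the whole pooled list, 2 with 5 kb around the gene body and 7 with 50 kb. The achaete-scute span, with 1 optimal summit, held 0 with the stronger 3028 peaks, 8 in the whole pooled list, 0 with 5 kb and 5 with 50 kb to each side. The 5 other genes, with 15, held 49 in the whole pooled list, 4 with 5 kb and 48 with 50 kb. The counts at 5 and 50 kb stand without the same counts over all protein-coding genes, so they show nothing particular to these genes. The share of optimal regions in all 3 replicates, 81.25%, was 100% with whole replicate lists, for which no share over the whole optimal set is given. Of the 56 palindromes in the span, 0 lay within 100 bp of a pooled summit, and 1 lay within 200 bp or inside a region, and all 3 of these counts were added after seeing the data. The first 4 counts were genes with a promoter summit, genes with a window summit, the span and the 5 other genes. A count without a replicate must lie between the full count and the count in all 3 top lists. These were 2 and 2, 6 and 6, 1 and 1, and 15 and 12 for the 4. Leaving out a replicate thus could not move any of them by over 1.5 times and does not test them. It was not run for the share or the palindromes. Of 108 alternative counts for single genes, 27 moved by more than 1.5 times. No paired analysis was possible because there was 1 group. Read depth is unknown, so weak binding below the lists' floor could not be assessed.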
